A study of Triticum aestivum with 122 samples.

Results

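Transcripts of the floret were set against those of the rachis in the same heads of the bread wheat cultivar Vida, a Triticum aestivum line, whose seeds had germinated with a brassinosteroid and whose plants had then spent 24 h at 29 °C. The members are 8 poly(A) RNA-seq libraries of the 122 samples of the series, a floret and a rachis library from each of 4 plants, chosen by tissue, seed treatment, temperature and time alone. They are called heated EBR heads here. Seeds had been treated with 1 µM 2,4-epibrassinolide (EBR) for 48 h of germination, plants were raised at 22 °C under 16 h of daily light, and pots were moved to 29 °C when heads reached the tetrad stage. The labels describe the 4 replicates as biological ones from separate plants, and the library names tie each floret to the rachis of its own plant.

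The heated EBR heads were compared with 3 other groups of the same cultivar, each of them with floret and rachis from the same heads. EBR heads at 22 °C (4 plants) came from EBR seed and were taken at the same 24 h without the move to 29 °C. EBR heads at 0 h (8 plants) came from EBR seed and were taken before the move, and they include pots that were later moved as well as pots that were kept. Heated DMSO heads (4 plants) spent the same 24 h at 29 °C, but their seeds had germinated with 1 µM dimethyl sulfoxide (DMSO), the control treatment.

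A wheat floret holds the stamens and the pistil inside its bracts, the lemma and palea, whereas the rachis is the axis of the head, rich in vascular tissue, on which the spikelets sit. At the tetrad stage the pollen mother cells have just completed meiosis, a stage known for its sensitivity to high temperature in cereals. Brassinosteroids are plant steroid hormones that bind the receptor kinase BRI1 at the cell surface and act through transcription factors of the BZR1 family on cell elongation, vascular development and male fertility.

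The deposited table lists genes of chromosome groups 1 to 5 of the A, B and D subgenomes by ID only, and it pairs no ID with a gene name. None of the IDs (0) matched the 155467 rows of the available RefSeq gene table, so no gene name, function or sequence is given, and each gene is named by its ID, in which the characters after "TraesCS" give the chromosome. At most 2 genes per direction are named for each question, apart from 1 exception that is marked. The 8 libraries held 17.5, 20.8, 16.6 and 17.6 M whole reads in the florets of plants 1 to 4 and 14.4, 16.7, 15.9 and 14.6 M in their rachises. Elsewhere in the series 3 of the 59 plants with both tissues went against their tissue labels: by genes that separated floret and rachis in EBR heads at 0 h, each library labelled floret scored below the library labelled rachis. They belong to EBR seed at 22 °C and 16 h (replicate 3), DMSO seed of the pots to be moved at 0 h (replicate 1) and DMSO seed at 22 °C and 0 h (replicate 1). None of them is in a group compared here, but they enter the spread that all plants share in the tests, so main counts are also given without them.

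The first question was which genes differ between floret and rachis in heated EBR heads. Of 40581 genes tested, 9633 (23.7%) were called at an adjusted p under 0.05 (limma on log2(normalized count + 1), plant as a block, Benjamini-Hochberg). Floret levels were higher than rachis levels for 3942 genes (9.71%) and lower for 5691 (14%). Without the 3 plants above, 12131 genes were called, 5349 higher and 6782 lower. Taken over all levels of expression, the genes that were lower in the floret were the more strongly changed ones. The median difference, floret minus rachis, was -1.12 on the log2 scale among lower genes and 0.46 among higher genes. At least a 2-fold difference was reached by 933 higher and 3111 lower genes, at least 4-fold by 328 and 1138, at least 8-fold by 44 and 165, and at least 16-fold by 12 and 33.

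**Figure D1:**
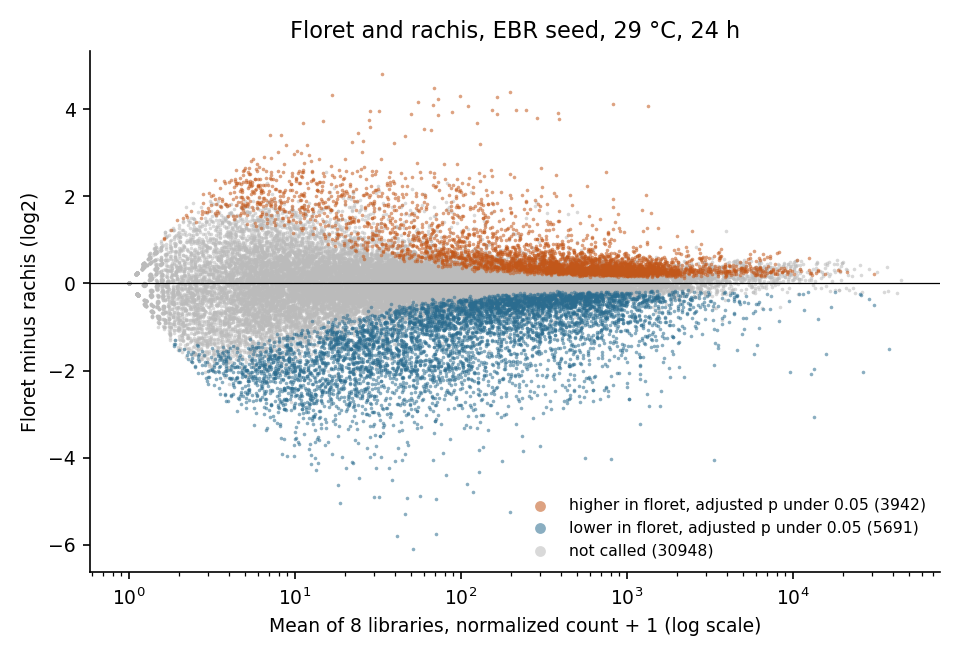
Each point is 1 of the 40581 genes tested, with the mean normalized count of the 8 libraries plus 1 on the x axis (log scale) and the difference of floret minus rachis (log2) on the y axis; colours mark the 3942 genes called higher and the 5691 called lower in the floret. Lower genes reach -6.09 and are spread over the whole range of levels, and higher genes crowd close to 0 at high counts.

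The 2 directions differed by level of expression. Among genes with a mean normalized count of at least 1000 over the 8 libraries, 27.5% were higher and 13.4% lower in the floret. Among genes with a mean under 10, 3.24% were higher and 7.28% lower. In the 3 classes between, the share of higher genes was 4.84% (mean 10 to 50), 7.36% (50 to 200) and 15.6% (200 to 1000), against shares of lower genes of 16.8%, 16.1% and 15.4%. The higher genes of the top class differed little, by a median of 0.31 on the log2 scale, against -0.55 for the lower genes of that class. Normalized counts are not divided by gene length, so these classes order genes by reads and not by molecules.

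The 4 plants shared the direction of most calls. All 4 plants had the sign of the call for 3803 of the 3942 higher genes and 5510 of the 5691 lower genes. Floret and rachis libraries did not overlap for 2978 of the higher and 4255 of the lower genes, which is 75.1% of the called genes, against 25.2% of all genes tested. Among 23972 genes with a mean of at least 50, the number at least 2-fold higher in the floret was 613, 525, 308 and 503 in plants 1 to 4, and the number at least 2-fold lower was 1457, 1592, 1417 and 1196. The lower genes outnumbered the higher ones in each plant, and plant 3 had the fewest higher genes. The median SD between plants was 0.159 on the log2 scale in the floret and 0.157 in the rachis.

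The count of calls depended on the number of plants, and its lean towards lower genes varied in size. The count was 5638 without plant 1, 5117 without plant 2 and 6381 without plant 4 (1912 higher and 3726 lower, 1615 and 3502, and 2215 and 4166). Higher genes made up 33.9%, 31.6% and 34.7% of these calls, against 40.9% with all plants. Without plant 3 the count was 7437, with 2904 higher and 4533 lower, and the share of higher genes was 39.0%. With only the heated EBR heads in the fit, 12746 of 33073 genes were called, 6024 higher and 6722 lower. The test of edgeR on the whole reads called 10622, 4905 higher and 5717 lower. Floret and rachis of a plant deviated together, and without the plant as a block the count was 6020, with 2055 higher and 3965 lower.

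With a level of at least 20 in the 4 libraries of a tissue and at most 2 in the 4 libraries of the other, 0 genes were restricted to the floret and 4 to the rachis. Bulk tissue was measured, so fewer cells of a type and less RNA per cell cannot be told apart behind any of these differences.

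The rachis gene at the top of the ranking by its smallest difference in a plant was TraesCS5B03G1167400.1. Its normalized counts in plants 1 to 4 were 0, 0, 0.948 and 0.880 in the floret, against 92.0, 70.9, 65.3 and 175 in the rachis. Each of the 4 rachises exceeded each floret, and the rachis of plant 4 was the highest. The difference was -6.09 on the log2 scale (SE 0.95, adjusted p = 3.8e-05). By condition means without the 3 plants against their labels, this gene was lower in the floret in the 15 other conditions too. The difference lay between -6.88 (heated DMSO heads at 16 h) and -1.59 (heated DMSO heads at 24 h). In the rachis of EBR heads at 22 °C it had 3.51, 17.3, 14.3 and 24.4, all under the heated EBR rachises, but the change of the tissue difference with temperature, -3.52 (SE 1.34), was not called (adjusted p = 1).

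The second was TraesCS2D03G0010300.1, with 3.51, 2.33, 0.948 and 0 in the floret, against 143, 224, 116 and 64.8 in the rachis. The tissues did not overlap, and the difference was -5.76 (SE 1.04, adjusted p = 1.6e-04). By condition means without the same 3 plants, it was negative in the 15 other conditions, between -5.48 and -0.86. In heated DMSO heads this gene was near 0 in both tissues, with 0, 0, 1.02 and 0 in the floret, against 0, 2.09, 1.20 and 2.24 in the rachis. Values this close to 0 make the size of a log2 difference depend on the 1 that was added before taking logarithms.

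The floret genes at the top of the ranking lie at the low-numbered end of chromosome 1A. TraesCS1A03G0001400.1 had 372, 449, 286 and 405 in the floret, against 10.6, 25.2, 14.6 and 20.6 in the rachis, a difference of 4.39 (SE 0.68, adjusted p = 3.7e-05). TraesCS1A03G0002100.1 had 116, 144, 120.4 and 172 in the floret, against 5.29, 8.40, 6.83 and 5.14 in the rachis, a difference of 4.23 (SE 0.69, adjusted p = 5.7e-05). In both, the lowest floret was well above the highest rachis. Unlike the rachis genes, they did not keep their direction across the series: the difference was positive in 10 and 12 of the 15 other conditions, and it reached -1.84 and -1.67 in EBR heads at 22 °C and 16 h, where 2 plants remain after the one against its labels is left out.

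**Figure D2:**
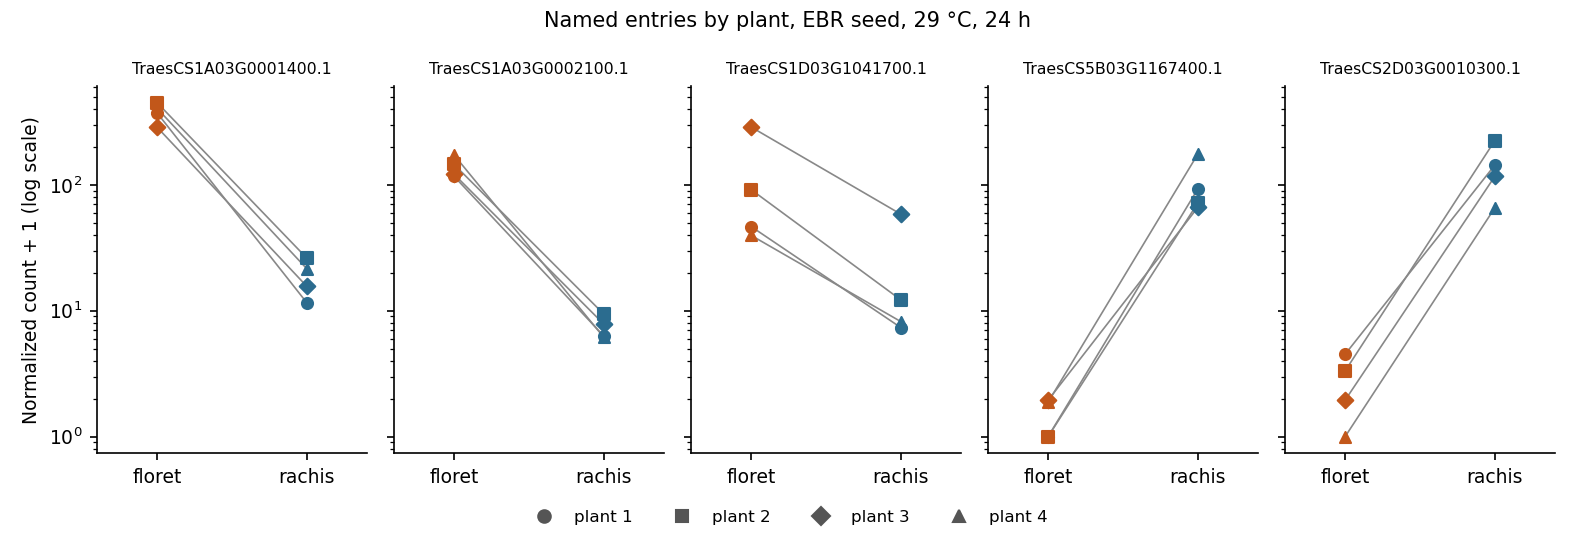
Normalized count plus 1 (y axis, log scale) of 5 named genes in the floret (left of each panel) and rachis (right) of the 4 heated EBR heads, with lines joining the tissues of a plant. Every line of the first 3 genes runs down to the rachis and every line of the last 2 runs up, and in the third gene plant 3 lies above the other plants in both tissues.

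A floret gene that kept its direction was looked for after these values had been seen. Condition means without the 3 plants against their labels were used, so plants that scored the other way had been removed beforehand. The first in the ranking with a mean floret level at least 2-fold higher in each of the 16 conditions was TraesCS1D03G1041700.1, the 25th gene. It had 45.7, 90.7, 287 and 38.7 in the floret, against 6.35, 11.2, 57.5 and 7.20 in the rachis. Plant 3 was high in both tissues, so its rachis exceeded the florets of plants 1 and 4, yet within each plant the floret was higher, by at least 2.28 on the log2 scale. The difference was 2.54 (SE 0.54, adjusted p = 7.4e-04), and its condition means lay between 1.20 and 2.64 in the 15 other conditions. Single plants could be under 2-fold: plant 1 of the EBR pots to be moved had a difference of 0.12 at 0 h. In all, by condition means without the 3 plants, 38 of the higher genes and 370 of the lower genes kept an at least 2-fold difference in the same direction in each of the 16 conditions.

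Called genes were found on each of the 15 chromosomes listed (groups 6 and 7 were not analysed here), between 21.9% of the genes tested on 1B and 25% on 1A. The subgenomes differed by less, with 24.1% of A, 23.4% of B and 23.8% of D genes called. Neighbours in ID order were called together somewhat more often than genes in general. The next gene was also higher for 12.9% of higher genes, against 9.78% of all genes, and also lower for 17.8% of lower genes, against 14.1%. The longest unbroken run of higher genes held 17 genes and is the end of 1A named above, from TraesCS1A03G0000200.1 to TraesCS1A03G0003200.1, and the longest run of lower genes held 10 genes, on 5A. Among 339 genes tested as more than 1 entry, 10 had at least 2 entries called, all 10 in a single direction, lower in the floret in 9 of them. Copies on the 3 subgenomes can be near identical, and how reads that fit several of them were counted is not stated in the labels, so values of single copies are uncertain to that extent.

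Whole-library measures moved with tissue as well. Floret libraries held 18.1 ± 1.86 M reads and rachis libraries 15.4 ± 1.12 M (SD, n = 4 each). Genes above 0 numbered 43370 ± 491 in florets and 42848 ± 316 in rachises. The 10 most abundant genes took 2.25 ± 0.12% of the floret values and 2.61 ± 0.098% of the rachis values. Genes of the B subgenome took 32.76 ± 0.071% in florets and 32.48 ± 0.098% in rachises. Genes of D took 32.46 ± 0.0503% in florets and 32.69 ± 0.091% in rachises, and genes of A took 34.78 ± 0.035% in florets and 34.83 ± 0.0105% in rachises. Each of these 6 measures had the same sign in all 4 plants, and the exact sign-flip permutation test gave p = 0.125 for each, the smallest that 4 plants allow (0.125 after adjustment over the 6). Depth and subgenome shares therefore differ between the tissues in every plant, and their part in the gene calls was not tested.

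The second question was how far the tissue difference of heated EBR heads was already there before heat. The 0 h heads were taken 24 h earlier, so time and temperature cannot be told apart in this comparison. In EBR heads at 0 h, 15092 of the 40581 genes (37.2%) differed between floret and rachis, 7355 higher and 7737 lower in the floret, with 8 plants instead of 4 (8165 and 8465 without the 3 plants against their labels). The 7355 genes higher at 0 h had a positive difference after 24 h at 29 °C in 7059 cases, and 3120 were called higher and 2 lower. Of the 7737 genes lower at 0 h, 7521 were negative after heat, 4457 were called lower and 2 higher. Seen from the heated heads, 3120 of the 3942 higher genes and 4457 of the 5691 lower genes had been called the same way at 0 h, while 820 and 1232 had not been called. Genes at least 2-fold lower at 0 h had a median difference of -1.77 after heat and -1.47 at 0 h, and genes at least 2-fold higher at 0 h had a median of 1.32 after heat and 1.48 at 0 h. The lists were chosen on the 0 h plants, a choice that raises the 0 h medians.

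A change of the tissue difference between 24 h at 29 °C and 0 h was called for 0 genes (0%, limma) and for 0 by edgeR on the whole reads. At an unadjusted p under 0.05 there were 2020 of the 40581 genes, a threshold that a share of about 0.05 passes where nothing changes. Of the settings tried, 2 gave calls. Without the 3 plants against their labels 2 genes were called, and with only the compared groups in the fit 51 were called, 6 higher and 45 lower. The 2 genes, chosen after their values were seen, moved in opposite directions. TraesCS5A03G0682800.1 had 35.1, 10.9, 3.79 and 70.4 in the floret of heated EBR heads and 93.1, 84.0, 65.3 and 185 in the rachis. At 0 h its florets lay between 46.1 and 155 and its rachises between 71.4 and 182, so the tissues overlapped at both times. The florets of heated plants 1 to 3 were below each floret at 0 h, and that of plant 4 was not. The tissue difference was -2.35 after heat and -0.36 at 0 h, a change of -1.99 (SE 0.42, adjusted p = 0.335, and 0.00706 without the 3 plants). In EBR heads at 22 °C and 24 h the tissue difference was -1.61, -0.51, -2.06 and -1.62 in plants 1 to 4. TraesCS4B03G0256600.1 had 688, 676, 663 and 473 in the heated florets and 584, 520, 529 and 410.2 in the heated rachises, each floret above its own rachis. At 0 h it was lower in the floret in each of 8 plants. The tissue difference was 0.29 after heat and -0.49 at 0 h, a change of 0.78 (SE 0.16, adjusted p = 0.335, and 0.0204 without the 3 plants). For this gene EBR heads at 22 °C and 24 h had -0.19, -0.11, -0.45 and -0.64.

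The third question was whether temperature changed the tissue difference in EBR heads. Against EBR heads at 22 °C, taken at the same 24 h, 0 genes were called (0%, limma), 0 by edgeR and 0 without the 3 plants against their labels. At an unadjusted p under 0.05 there were 1377 of the 40581 genes, where a share of about 0.05 passes without any change. The largest part of the floret and rachis calls was shared in sign: of the 3942 higher genes 98.3% were positive in EBR heads at 22 °C, and of the 5691 lower genes 98.5% were negative, against 49.96% and 48.9% of all genes tested. The higher genes had a median difference of 0.46 in heated EBR heads, where they were chosen, and 0.44 in EBR heads at 22 °C. The lower genes had -1.12 in heated EBR heads and -0.91 in EBR heads at 22 °C.

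With only the heated and unheated EBR heads in the fit, 20 genes were called, all with a larger tissue difference in the heated heads, by a median of 3.73 on the log2 scale (3.16 to 4.59). Of these 20 genes 12 lie on chromosome 1A, all in its low-numbered end, and the others on 1B (1), 4A (2), 4D (1), 5A (2) and 5D (2). They fill 18 of the first 20 places of the ranking of floret genes described above. The gene with the most reads among them, TraesCS5D03G0057200.1, chosen after its values were seen, had 2334, 2636, 2427 and 2700 in heated EBR florets and 116, 148, 194 and 147 in their rachises. In EBR heads at 22 °C it had 125, 103, 289 and 179 in the floret, against 222, 96.5, 112 and 109 in the rachis. The heated florets were thus higher than all other libraries of these 2 groups, and the change of the tissue difference was 3.74 (SE 0.82, adjusted p = 0.269 with all plants in the fit, and 4.9e-04 with only these groups).

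These 20 genes followed the numbering of the plants. Library names give each condition a plant-set number, 11 for heated EBR heads and 5 for EBR heads at 22 °C. The 20 genes were chosen by the change between these 2 sets, so the place of sets 11 and 5 was fixed by that choice. Both sets are counted in the ranges below, but the lowest and highest florets are of other sets. In the sets 10 to 16, the mean log2 level of the 20 genes lay between 6.04 and 9.30 in 27 florets (median 8.24) and between 3.44 and 4.69 in 26 rachises (median 4.20). In the sets 1 to 9, it lay between 3.70 and 7.50 in 31 florets (median 4.37) and between 3.26 and 8.67 in 31 rachises (median 3.86), leaving out the 3 plants against their labels. EBR heads at 0 h, which are sets 10 and 12, had high florets without any heat: TraesCS5D03G0057200.1 lay between 657 and 4035 in their florets and between 95.2 and 201 in their rachises. Heated DMSO heads, which are set 4, had 111, 158, 165 and 131 in the floret, against 238, 85.6, 101 and 102 in the rachis. As each set is a single condition, plant set and temperature cannot be told apart between sets 11 and 5. Over the series the cause was not tested. The 2 floret genes named first belong to these 20 genes.

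**Figure D3:**
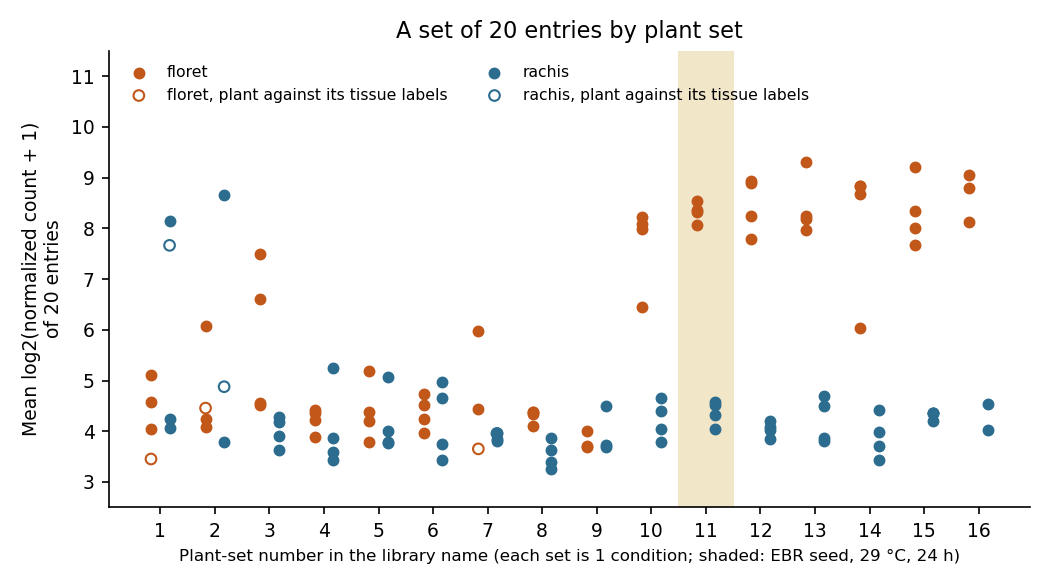
Mean log2(normalized count + 1) of the 20 genes (y axis) in every floret and rachis library, by the plant-set number of the library name (x axis, 1 condition per set, heated EBR heads shaded); open circles are the 3 plants against their tissue labels. Florets are at 6.04 or more in sets 10 to 16 and mostly lower in sets 1 to 9, and rachises of sets 10 to 16 are at 4.69 or less.

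The fourth question was whether the seed treatment changed the tissue difference in heated heads. Heated EBR heads are plant set 11 and heated DMSO heads are set 4. Seed treatment and plant set therefore cannot be told apart in this comparison. Between heated EBR and heated DMSO heads the difference of floret minus rachis changed for 8351 of 40581 genes (20.6%, limma): it was higher in EBR heads for 2800 (6.9%) and lower for 5551 (13.7%). The test of edgeR on the whole reads called 6984 genes, 2107 higher and 4877 lower. Without the 3 plants against their labels the counts were 3417 and 6850, and without the plant as a block 1876 and 3456. After rescaling by trimmed means of M-values they were 2103 and 6962, so that the share of higher calls depended on the scaling. The differences were large for many genes, at least 2-fold for 1401 higher and 2982 lower, at least 4-fold for 833 and 1218, and at least 8-fold for 351 and 608. Heated DMSO heads at 24 h stood apart from the rest of the series. Of the genes called higher in the floret of heated EBR heads, 88.6% were positive there, and 75.3% of the lower ones were negative. In every other condition these shares were at least 93.8% and 91.1% (without the 3 plants), and the reason was not tested.

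The tissue difference had the opposite sign in EBR and DMSO heads for 1628 of the higher and 2992 of the lower genes. The 2800 higher genes had a median difference of 0.05 in EBR heads and -0.87 in DMSO heads, and the 5551 lower genes had -0.09 in EBR heads and 0.76 in DMSO heads. Taken without its sign, the difference had a median of 0.22 in EBR heads and 0.87 in DMSO heads for the higher genes, 0.29 and 0.76 for the lower genes, and 0.28 and 0.45 for all genes tested. By this size it was larger in EBR heads for 13.8% of the higher and 23.9% of the lower genes, against 35.4% of all genes tested. These values describe genes chosen by the change itself and are no further test of it. Set against the same tissue of DMSO heads, the higher genes had a median change of -0.15 in EBR florets and -1.04 in EBR rachises. The lower genes had -0.69 in EBR florets and 0.23 in EBR rachises.

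**Figure D4:**
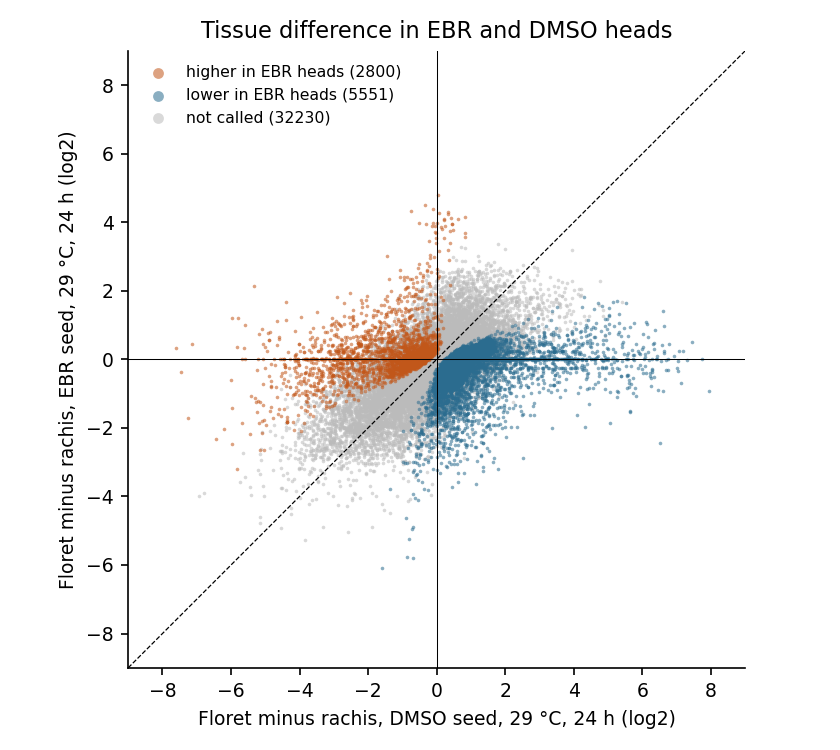
Floret minus rachis (log2) of each gene in heated DMSO heads (x axis) and heated EBR heads (y axis), with the 2800 genes of a higher and the 5551 of a lower difference in EBR heads in colour and the line of equal difference dashed. The coloured points lie above the line for the higher and below it for the lower genes, and many of them stretch along the x axis near 0 on the y axis.

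Named by their large change, 2 genes were rachis genes of the DMSO heads and 2 were floret genes of the DMSO heads, and all 4 were low in both tissues of EBR heads after 24 h of heat. TraesCS4B03G0868900.1 had 0, 1.55, 0.948 and 0 in the floret, against 1.06, 0, 0 and 0 in the rachis of EBR heads. In DMSO heads it had 0, 0, 1.02 and 1.05 in the floret, against 68.9, 601, 236 and 596 in the rachis. Its tissue difference changed by 7.92 (SE 1.03, adjusted p = 1.8e-07). TraesCS4A03G1181200.1 was listed at 0, 2.33, 0 and 0 in the EBR florets and at 0 in all 4 EBR rachises. In DMSO heads its florets had 0, 0, 7.14 and 0 and its rachises 59.8, 232, 312 and 736. The change was 7.58 (SE 0.68, adjusted p = 2.0e-11), but edgeR on the whole reads did not call it (adjusted p = 5.9e-02). The SE rests on a spread shared with other conditions, in most of which this gene was near 0. With only the compared groups in the limma fit the SE was 0.91 (adjusted p = 1.8e-04).

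TraesCS2B03G0872700.1 had 0.878, 0, 0.948 and 2.64 in the floret, against 1.06, 1.87, 0.975 and 13.4 in the rachis of EBR heads. In DMSO heads it had 1986, 474, 414 and 293 in the floret, against 7.90, 0, 2.40 and 0 in the rachis. The change was -8.87 (SE 1.09, adjusted p = 5.5e-08). TraesCS1D03G0484700.1 had 5.27, 2.33, 5.69 and 0 in the floret, against 9.52, 0.933, 2.93 and 11.3 in the rachis of EBR heads. In DMSO heads it had 3220, 927, 987 and 575 in the floret, against 27.1, 2.09, 4.80 and 7.86 in the rachis, and the change was -7.83 (SE 1.02, adjusted p = 1.9e-07). In both genes each DMSO floret was above the other 12 libraries of the comparison, and plant 1 was the highest. For 3 of the 4 genes the low levels in EBR heads did not hold at other times of heat. After 16 h of heat TraesCS2B03G0872700.1 reached 827 in an EBR floret and 209.6 in an EBR rachis, and after 8 h it reached 372 in an EBR floret. TraesCS1D03G0484700.1 reached 1406 in a floret and 428 in a rachis of EBR heads after 16 h of heat. In DMSO heads at 22 °C and 24 h the florets reached 1096 for TraesCS2B03G0872700.1 and 589 for TraesCS1D03G0484700.1. Of the genes high in the DMSO rachis, TraesCS4B03G0868900.1 reached 129 in an EBR rachis after 8 h of heat, and TraesCS4A03G1181200.1 did not pass 9.58 in any EBR library.

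Other measures differed with these gene counts. Genes above 0 numbered 42709 to 43838 in EBR florets and 42568 to 43238 in EBR rachises, against 45799 to 47131 in DMSO florets and 44773 to 45955 in DMSO rachises. A tissue score was formed from the genes called and at least 2-fold apart in a limma fit of only the 16 libraries of EBR heads at 0 h, as the mean log2 level of 1255 floret genes minus that of 2547 rachis genes. In heated EBR heads it was 1.60, 1.51, 1.34 and 1.37 in the florets and -2.14, -1.96, -1.31 and -1.98 in the rachises, so that the tissues were apart and the rachis of plant 3 was nearest to the florets. In heated DMSO heads it was -0.11, -0.34, -0.68 and -0.65 in the florets and -2.65, -3.93, -2.70 and -3.37 in the rachises, and both tissues were lower than in EBR heads. In EBR heads at 22 °C it lay between 0.90 and 1.37 in the florets and between -3.53 and -1.58 in the rachises.

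The score was higher in heated EBR than in heated DMSO heads by 1.90 in the floret and 1.32 in the rachis, with no overlap in either tissue (exact permutation p = 0.0286 for each, the smallest that 4 against 4 plants allow, 0.0857 adjusted over 6 tests). The difference of the score within plants was 3.30 ± 0.46 in heated EBR heads and 2.72 ± 0.65 in heated DMSO heads (SD, n = 4 each, exact permutation p = 0.229, 0.343 adjusted). The within-plant difference was 3.69 ± 1.10 in EBR heads at 22 °C (SD, n = 4), against which heated EBR heads gave an exact permutation p = 0.514 (0.514 adjusted). In DMSO heads the floret score was lower mainly through the rachis genes, whose mean log2 level in florets was 3.68 ± 0.26 in heated EBR heads and 5.15 ± 0.067 in heated DMSO heads. The rachis genes were also higher in the rachises of heated DMSO heads, at 6.75 ± 0.28, against 5.55 ± 0.35 in the rachises of heated EBR heads. The floret genes had 5.14 ± 0.28 in the florets of heated EBR heads and 4.71 ± 0.22 in those of heated DMSO heads (SD, n = 4 each). How cleanly each head was divided, and which cells the pieces held, cannot be read from genes without names, and their part in the 8351 calls was not tested.

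**Figure D5:**
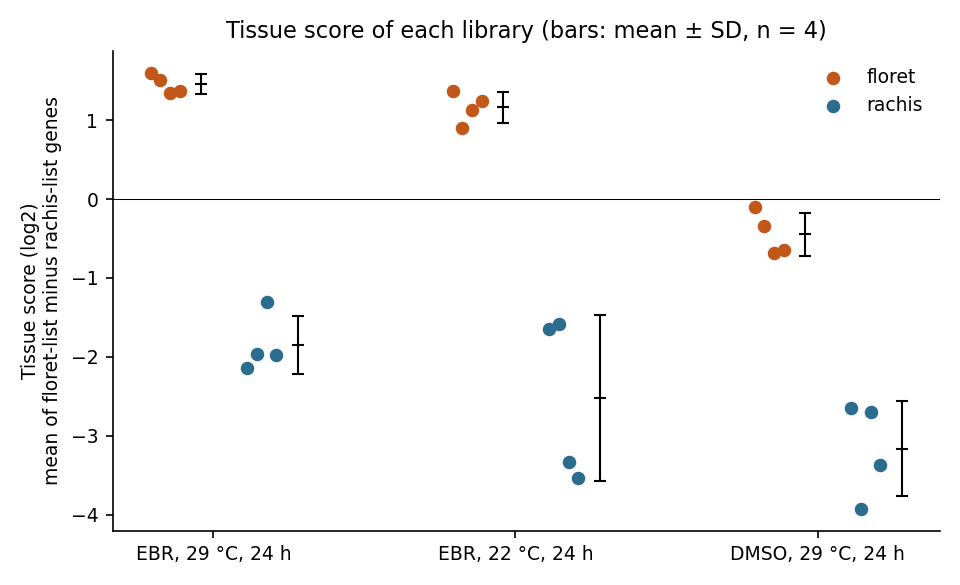
Tissue score (y axis, log2: mean of the floret-list genes minus mean of the rachis-list genes) of each floret (left) and rachis (right) library, with mean ± SD of 4 plants, in heated EBR heads, EBR heads at 22 °C and heated DMSO heads. Florets are above rachises in each group, and both tissues of heated DMSO heads are below those of heated EBR heads.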

How the data were processed

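Poly(A) RNA of floret and rachis was sequenced, per the labels' protocols. The deposited values are a signal that the authors call normalized counts, in a single table for all libraries. The submitters' processing notes list FastQC, MultiQC, Trimmomatic 0.36, STAR, featureCounts and DESeq2, and give no genome build here. In every library 100% of the values were whole reads divided by a single factor (within 0.01). Of 55578 entries, 1 was incomplete, so 55577 entries of 53798 gene IDs were used; 121 of 122 samples have a column, with 14.5 to 21.8 M reads in florets and 10.6 to 18.2 M in rachises over the listed genes.

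The log2 of each value plus 1 was fitted in R 4.3.3 by limma 3.58.1, with an intensity trend, the plant as a block and 16 floret-minus-rachis terms. All 59 plants with both tissues were fitted (43 residual degrees of freedom), as 4 plants give little information on spread. Genes needed values of 10 or more in 3 or more libraries. Tests were two-sided, with Benjamini-Hochberg adjustment over all genes tested and calls at an adjusted p under 0.05. Changes between conditions are differences of these terms. The quasi-likelihood test of edgeR had been planned as the main test if the values were whole counts. The deposited values are whole reads divided by a factor. The limma fit was kept as the main test, and edgeR was run as an alternative. The plant is the block because both tissues come from the same head: deviations of floret and rachis from their means correlated at 0.40, 0.45, 0.49 and 0.63 in the 4 plants (across genes).

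For floret against rachis, genes were named by the largest smallest-plant difference (mean at least 50, same sign in 4 plants), and for changes by the largest change without overlap of plants, 2 per direction at most; exceptions are marked as chosen after their values were seen. Comparisons, lists and rules were chosen with earlier results of these data known. Gene lists by symbol and cell type markers could not be used, as 0 IDs matched. Alternatives were pseudocounts of 0.5 and 5, no filter and a stricter one, trimmed-mean-of-M-values (TMM) scaling, no intensity trend, no block, only the compared groups, leaving out each plant, the quasi-likelihood test of edgeR 4.0.16 on whole reads, and, added after seeing the data, leaving out the 3 plants against their tissue labels. Data for floret against rachis in heated EBR heads were also simulated (40391 genes), with changes only in genes of a mean of at least 50, 100 per fold. On these, limma recovered 79% of genes changed 2-fold and 95% of those changed 4-fold and called 0.02% of the unchanged ones. With edgeR on the 8 libraries alone (33521 genes), 50% and 95% were recovered. Each gene's simulated noise had the same spread in all conditions and few genes changed, so the false-call rate of the real comparison was not measured.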

Additional observations from a re-analysis of the deposited data

Results flagged for a closer look

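Between heated EBR and heated DMSO heads, which are also different plant sets, the tissue difference changed for 8351 genes, by a test of the change itself. Its 4 named genes changed by 7.92 (TraesCS4B03G0868900.1), 7.58 (TraesCS4A03G1181200.1), -8.87 (TraesCS2B03G0872700.1) and -7.83 (TraesCS1D03G0484700.1) on the log2 scale, EBR minus DMSO.

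Single libraries of heated EBR heads stood far from the other 3 of their tissue in 6 of the 38 groups of 4 that were looked at. Chance flags about 1 in 20 groups of independent, evenly spread values. The groups here share the same plants and some hold values tied at 0, so that rate cannot be set against them directly. The rachis of plant 3 had 57.5 for TraesCS1D03G1041700.1, whose floret was also the highest in that plant. The rachis of plant 1 had 1.06 for TraesCS4B03G0868900.1, the floret of plant 2 had 2.33 for TraesCS4A03G1181200.1 and the rachis of plant 4 had 13.4 for TraesCS2B03G0872700.1, with the other 3 libraries at 0 for the 2 genes named first, so that very few reads stood out, and at 1.87 or less for the last. The floret of plant 4 had 473 for TraesCS4B03G0256600.1, under the others. The 10 most abundant genes took 2.42% of the floret of plant 3, above the other florets.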

How the results depend on the processing

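Replacing the plant block by no block gave 6020 calls for floret against rachis in heated EBR heads and 5332 for the change with seed treatment, against 9633 and 8351; the other counts kept within 1.5 times of their main value without the block. Leaving out a plant of heated EBR heads gave 5117 to 7437 calls for floret against rachis. With only the compared groups in the fit, 20 genes were called for the change with temperature and 51 for the change with time, against 0 and 0, and without the 3 plants against their labels 2 were called for the change with time; the causes were not tested. Over all alternatives of the 5 counts, 70 values were within 1.5 times of the main one and 8 were not. The 70 include each alternative that gave 0 for the change with temperature or time, where the main count is also 0. Of the named genes, TraesCS4A03G1181200.1 was not called by edgeR (adjusted p = 5.9e-02, against 2.3e-16 to 5.9e-02 over its alternatives), the 3 genes of the time and temperature comparisons were called with only the compared groups in the fit, the 2 of the time comparison also without the 3 plants, and none of the 3 in the other alternatives, and no direction was reversed. Differences of low genes are limited by depth: a value near 1 is about a single read.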
